A study of Homo sapiens with 6 samples.

Results

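CXCL1, CXCL2, CXCL3, CXCL5, CXCL8, CCL20, IL1A, IL1B, IL6 and LIF are the chemokine and inflammatory cytokine genes described here, chosen by symbol as 10 of the 28395 genes measured. They were followed by RNA-seq in HCC827, a widely used line of human lung adenocarcinoma whose EGFR gene has an activating deletion. HCC827 cells received either the vehicle DMSO (3 libraries) or 1 μM erlotinib, an inhibitor of the EGFR kinase (3 libraries), for 24 h, and both groups share the same culture medium and the same EGFR deletion. On genes, DMSO libraries 1 to 3 held 20858083, 24641819 and 21172884 reads, and the erlotinib libraries, numbered 4 to 6 in the table, held 21944007, 20760204 and 21678395. These totals were recovered from the values, and library 5, whose step between values is close to 1, was kept out of the count tests. HCC827 is a single cell line, and the labels do not say that the libraries of a group came from separate cultures, so the p-values measure only the spread between these libraries. Values are given as signal, the reads of a gene divided by 1 size factor per library.

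CXCL1, CXCL2, CXCL3, CXCL5 and CXCL8 encode secreted chemokines that attract neutrophils through the receptors CXCR1 and CXCR2, and CCL20 attracts lymphocytes and dendritic cells that carry CCR6. IL1A and IL1B encode the interleukin-1 ligands, which act on IL1R1 with its partner IL1RAP. IL6 and LIF bind IL6R and LIFR and signal through the shared chain gp130, encoded by IL6ST. Epithelial cells switch on many of these genes through NF-κB, together with AP-1 and C/EBP factors, and their short-lived mRNAs are cleared by RNA-binding proteins such as the ZFP36 family and the RNase encoded by ZC3H12A.

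RefSeq promoter windows on GRCh38.p14, from 250 bases before to 50 bases after the gene start, were found for 9 of the 10 genes. A core of the NF-κB site, spelled GGANTTTCC and searched on both strands, occurred in 6 of these 9 genes and in 1.64% of 35116 promoter windows of the same length. The 110 bases before the start are shown for those 6 genes, with the core in capitals, because they are also the 6 genes that were higher with erlotinib. CCL20 is added, where the longer NF-κB consensus, searched by that name, matched on the reverse strand and is in capitals. The letters were chosen with the results of these data known, and a match is a description of the sequence only.
CXCL1 (chr4:73869283-73869392, + strand): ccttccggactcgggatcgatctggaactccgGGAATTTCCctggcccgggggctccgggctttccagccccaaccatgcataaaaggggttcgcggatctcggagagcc
CXCL2 (chr4:74099196-74099305, - strand): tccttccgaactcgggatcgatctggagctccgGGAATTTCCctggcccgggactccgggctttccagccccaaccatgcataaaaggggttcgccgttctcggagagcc
CXCL3 (chr4:74038690-74038799, - strand): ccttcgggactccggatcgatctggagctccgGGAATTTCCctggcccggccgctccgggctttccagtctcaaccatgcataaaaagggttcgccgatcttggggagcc
CXCL5 (chr4:73998678-73998787, - strand): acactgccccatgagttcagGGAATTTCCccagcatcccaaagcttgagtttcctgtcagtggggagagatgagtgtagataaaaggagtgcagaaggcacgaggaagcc
CXCL8 (chr4:73740459-73740568, + strand): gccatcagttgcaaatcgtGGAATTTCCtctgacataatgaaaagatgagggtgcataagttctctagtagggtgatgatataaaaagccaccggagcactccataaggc
IL6 (chr7:22727090-22727199, + strand): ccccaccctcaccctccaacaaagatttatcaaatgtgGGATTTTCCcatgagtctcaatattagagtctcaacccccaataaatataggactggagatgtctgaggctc
CCL20 (chr2:227813732-227813841, + strand): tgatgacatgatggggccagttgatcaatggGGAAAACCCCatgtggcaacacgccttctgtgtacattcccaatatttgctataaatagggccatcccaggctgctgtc
The core read GGAATTTCC in all 5 CXC genes and GGATTTTCC in IL6. Counted from -1 at the base before the start, it lay at -78 to -70 in CXCL1 and CXCL3, -77 to -69 in CXCL2, -90 to -82 in CXCL5, -91 to -83 in CXCL8 and -72 to -64 in IL6. The NF-κB consensus, which overlaps the core where both occur, was in 11.3% of all windows and in 6 of the 9 genes. These are not the same 6 genes as those with the core. The consensus was absent from the window of CXCL8, which was higher, and present in that of CCL20, which was not tested. The AP-1 motif TGANTCA (7.71% of all windows) was in the windows of IL1A and CXCL8, and the C/EBP motif TTGCNNAA (10.5%) in those of IL1B, CXCL2 and IL6. The windows of CXCL1 and CXCL3 were identical at 84.7% of their bases, those of CXCL2 and CXCL3 at 76.7%, and those of CXCL1 and CXCL2 at 73%, while the CXCL8 window was 37.3% identical to that of CXCL1.

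In the whole table, genes with the core were lower about as often as higher. Of the 251 tested genes with the core in a promoter window, 92 were higher (36.7%) and 91 were lower, and the median of their log2 fold changes was -0.01. Without the genes described here, 86 of 245 were higher (35.1%) and 91 lower (37.1%). Of all tested genes, 35.3% were higher and 35.4% lower.

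With erlotinib, 6 of the 10 genes were higher, none was lower, 3 did not pass the test and 1, CCL20, was too low to be tested. The test was limma on log2(signal + 1), run for the 14215 genes whose mean was 10 or more, with p-values adjusted over all of these by the Benjamini-Hochberg method and a threshold of 0.05. Of those genes 35.3% were higher and 35.4% lower. No gene was lower by limma at an unadjusted p under 0.05 either, nor by DESeq2, edgeR or limma-voom on the recovered reads. IL1B passed the minimum only through the erlotinib libraries, with a DMSO mean of 9.07. The 9 tested genes had a median log2 fold change of 0.79, beside 0.02 for all tested genes. In bulk RNA, more cells that express a gene and more RNA per cell cannot be told apart.

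CXCL1 had the largest change of the 10 genes. Its signal was 124, 122 and 97.4 in the DMSO libraries and 603, 709 and 663 in the erlotinib libraries. Every erlotinib library lay far above every DMSO library, with means of 114 ± 14.6 and 658 ± 53.3 (SD, n = 3), a 5.76-fold difference. The log2 fold change was 2.52 ± 0.14 (SE, adjusted p = 1.1e-12, limma), and 3.43% of the tested genes had a larger one. On GRCh38.p14, CXCL1 lies on chromosome 4 at 73869393 to 73871308.

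CXCL8, which encodes interleukin-8, the best-known neutrophil attractant, followed. Its signal was 109, 130.0 and 135 in DMSO and 525, 548 and 651 with erlotinib. The groups stood apart, with means of 125 ± 13.8 and 575 ± 66.7 (SD, n = 3), a 4.61-fold difference and a log2 fold change of 2.20 ± 0.14 (SE, adjusted p = 1.3e-11, limma). Of the tested genes, 4.73% had a larger log2 fold change.

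CXCL2 and CXCL3, the closest relatives of CXCL1, also rose, with smaller log2 fold changes. The differences in change between genes were not tested. CXCL2 had a signal of 143, 146 and 94.2 in DMSO and 359, 376 and 451 with erlotinib, a log2 fold change of 1.64 ± 0.17 (SE, adjusted p = 2.6e-08, limma, n = 3 per group). CXCL3 had the lowest signal of the family members described here, at 29.5, 27.9 and 43.9 in DMSO and 76.6, 101 and 88.9 with erlotinib, a log2 fold change of 1.39 ± 0.27 (SE, adjusted p = 1.2e-04, limma, n = 3 per group). On chromosome 4, CXCL2 lies at 74097040 to 74099195 and CXCL3 at 74036589 to 74038689. For both, the lowest erlotinib library lay above the highest DMSO library. These 3 genes share stretches of at least 50 identical bases, so the authors' counting of uniquely mapped reads could lose reads from them. Such stretches made up 16.6% of the MANE Select transcript of CXCL1 (longest 77 bases, shared with CXCL2), 25.7% of CXCL2 and 8.56% of CXCL3 (longest 92 bases, shared between both), 3.16% of CXCL5 (77 bases, also found on chromosome 16), and none of that of CXCL8. Stretches with mismatches were not counted, so these percentages do not bound the uncertainty in the levels of the 3 genes relative to each other.

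CXCL5 was the most abundant of the 10 genes in both conditions and the least changed of the CXC genes. Its signal was 2759, 3284 and 2739 in DMSO and 4568, 5710.1 and 4911 with erlotinib. All erlotinib libraries were above all DMSO libraries. The means were 2927 ± 309 and 5063 ± 586 (SD, n = 3), a 1.73-fold difference, and the log2 fold change was 0.79 ± 0.08 (SE, adjusted p = 4.9e-08, limma). Of the tested genes, 22.2% had a larger log2 fold change. CXCL5 lies at 73995642 to 73998677 and CXCL8 at 73740569 to 73743716 of the same chromosome.

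**Figure D1:**
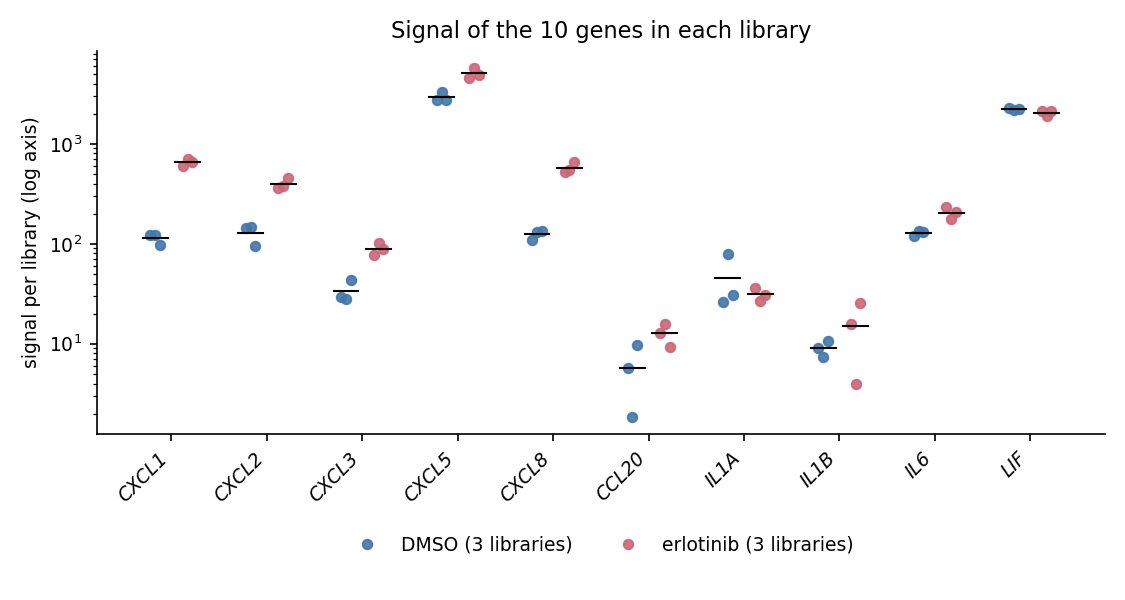
Signal of each gene in each library on a log axis, 3 DMSO libraries (blue) and 3 erlotinib libraries (red), with black bars at the group means. The groups are apart for CXCL1, CXCL2, CXCL3, CXCL5, CXCL8 and IL6, overlap for CCL20, IL1A and IL1B, and lie close together for LIF.

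The log2 fold changes of CXCL1 and CXCL8 were larger than that of CXCL5, and the makeup of this group of transcripts differed between the conditions. Per kb of the MANE Select transcript, the summed signal of CXCL1, CXCL2, CXCL3, CXCL5 and CXCL8 was 1521 ± 146 in DMSO and 3426 ± 308 with erlotinib (SD, n = 3). CXCL5 made up 77.6%, 79.9% and 79.5% of that sum in the DMSO libraries and 60.5%, 63.1% and 58.2% in the erlotinib libraries. CXCL1 made up 7.21%, 6.14% and 5.86% in DMSO and 16.6%, 16.3% and 16.3% with erlotinib. CXCL8 went from 4.54%, 4.69% and 5.81% in DMSO to 10.3%, 8.995% and 11.4% with erlotinib. CXCL5 was the main transcript of the group in every library. These shares follow from the changes of the single genes above and were given no test of their own. Reads across introns were not split in the alignment, so levels per kb may be biased between genes, which was not tested.

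**Figure D2:**
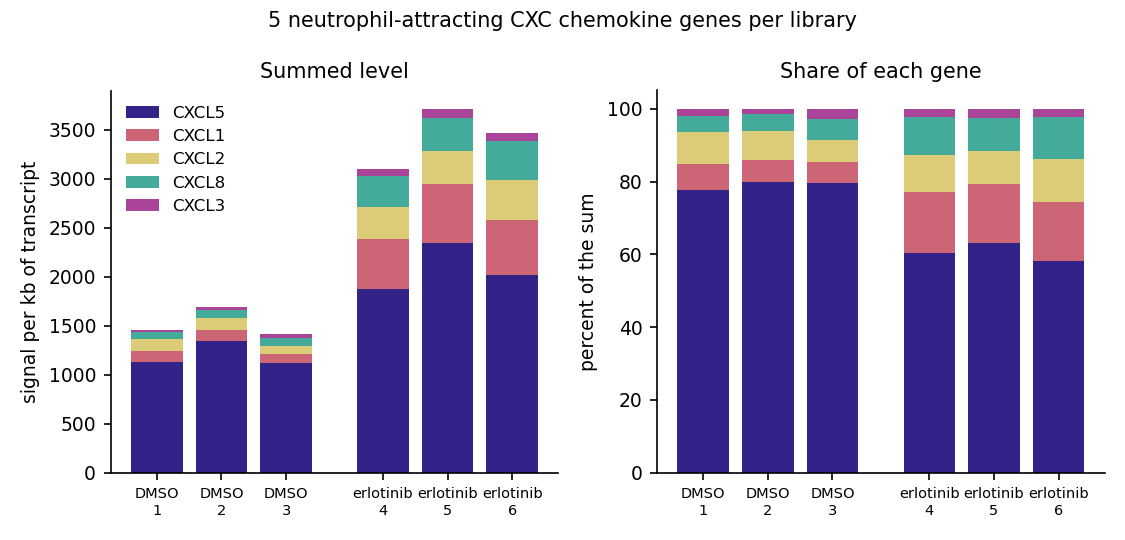
Stacked bars per library for CXCL5, CXCL1, CXCL2, CXCL8 and CXCL3. The left panel gives the signal per kb of transcript and the right panel the percent of their sum, in which CXCL5 takes between 77.6% and 79.9% in DMSO and between 58.2% and 63.1% with erlotinib.

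All 5 CXC genes lie in 1 cluster on chromosome 4, within 359 kb from 73740569 to 74099195. CXCL6, a further neutrophil attractant between CXCL8 and CXCL1, had a signal of 2.27, 13.9 and 4.28 in DMSO and 21.2, 24.7 and 22.5 with erlotinib, and a log2 fold change of 1.90 ± 0.60 (SE). CXCL6 entered the test only through the erlotinib libraries, so its adjusted p is given from the fit with no filter, 0.01003 (limma, n = 3 per group). The call for CXCL6 was lost in 1 of 15 alternatives, by DESeq2. A pseudocount of 10 brought the change to 1.02 on the log2 scale, and leaving out DMSO library 2 to 2.52. The promoter window of CXCL6 also held GGAATTTCC, at -89 to -81, and was 83.7% identical to that of CXCL5. The platelet chemokine genes PF4, PF4V1 and PPBP and the pseudogene PPBPP2, in the same cluster, were listed at 0 in every library. The nearest tested genes outside did not pass the test. RASSF6, before CXCL8, had means of 464 and 488 (log2 fold change 0.08 ± 0.12, SE, adjusted p = 0.556), and MTHFD2L, after CXCL2, had means of 153 and 128 (log2 fold change -0.26 ± 0.18, SE, adjusted p = 0.197; both limma).

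**Figure D3:**
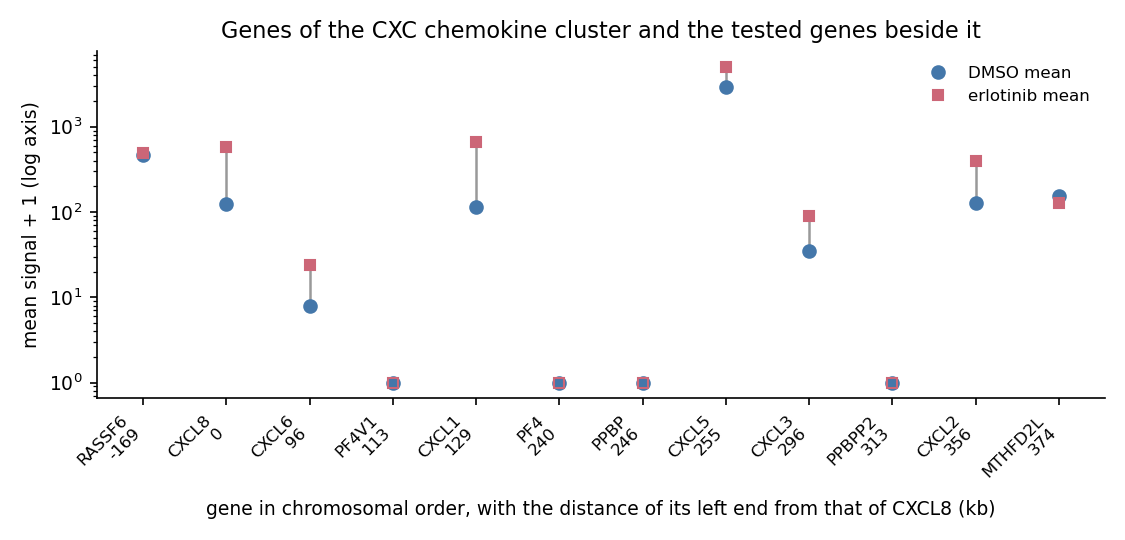
Mean signal + 1 in DMSO (blue circles) and with erlotinib (red squares), on a log axis, for the genes of the chromosome 4 cluster in their order and the nearest tested gene on either side. The 6 expressed chemokine genes from CXCL8 to CXCL2 moved up, PF4V1, PF4, PPBP and PPBPP2 stayed at 0, and RASSF6 and MTHFD2L did not pass the test.

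CCL20, on chromosome 2 at 227813842 to 227817556, was close to the limit of detection. Its signal was 5.67, 1.86 and 9.63 in DMSO and 12.9, 15.8 and 9.36 with erlotinib. Its highest DMSO library lay just above its lowest erlotinib library, and its mean over the 6 libraries was under the minimum of 10. With no filter on low values, the log2 fold change was 1.19 ± 0.59 (SE, adjusted p = 0.102, limma, n = 3 per group). CCL20 thus did not pass the test.

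The interleukin-1 ligands were low and did not pass the test. IL1A had a signal of 26.1, 78.9 and 31.04 in DMSO and 36.0, 26.7 and 30.9 with erlotinib, where DMSO library 2 was far above all others. The log2 fold change was -0.36 ± 0.38 (SE, adjusted p = 0.404, limma, n = 3 per group), and it was 0.12 without DMSO library 2. IL1B had a signal of 9.08, 7.43 and 10.7 in DMSO and 15.7, 3.96 and 25.3 with erlotinib. The erlotinib libraries of IL1B lay on both sides of the DMSO libraries (log2 fold change 0.38 ± 0.64, SE, adjusted p = 0.61, limma, n = 3 per group), and without erlotinib library 6 the log2 fold change was -0.13. Both genes lie side by side on chromosome 2, IL1A at 112773925 to 112784493 and IL1B at 112829751 to 112836779. The nearest tested genes moved in opposite directions: CKAP2L, a mitotic spindle gene, fell (means 2311 and 371, log2 fold change -2.64 ± 0.11, SE, adjusted p = 1.1e-14), and IL36RN rose (log2 fold change 2.60 ± 0.34, SE, adjusted p = 9.5e-07, both limma).

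The gp130 cytokine genes IL6 (chromosome 7, 22727200 to 22731998) and LIF (chromosome 22, 30240453 to 30246759) had different levels. IL6 had a signal of 120.2, 135 and 132 in DMSO and 231, 178 and 207 with erlotinib. All erlotinib libraries were above all DMSO libraries, with means of 129 ± 7.60 and 205 ± 26.3 (SD, n = 3) and a log2 fold change of 0.66 ± 0.16 (SE, adjusted p = 0.0012, limma). LIF had a far higher signal, also per kb of transcript, at 2257, 2167 and 2232 in DMSO and 2137, 1893 and 2118 with erlotinib. The LIF libraries did not overlap and were lower with erlotinib, as for 36.9% of the tested genes (36.7% were higher without overlap), but the log2 fold change of -0.12 ± 0.07 (SE, adjusted p = 0.162, limma, n = 3 per group) did not pass the test and was 0.06 when libraries were scaled to their total count. IL6-AS1 overlaps 421 bases of IL6, and LIF-AS1 and LIF-AS2 overlap LIF. Whether strand was used in the counting is not given in the sources used here, so reads of these antisense genes cannot be told apart from those of IL6 and LIF. CXCL5 overlaps the uncharacterized gene LOC124900715 by 450 bases, and the orientation of that gene was not examined.

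**Figure D4:**
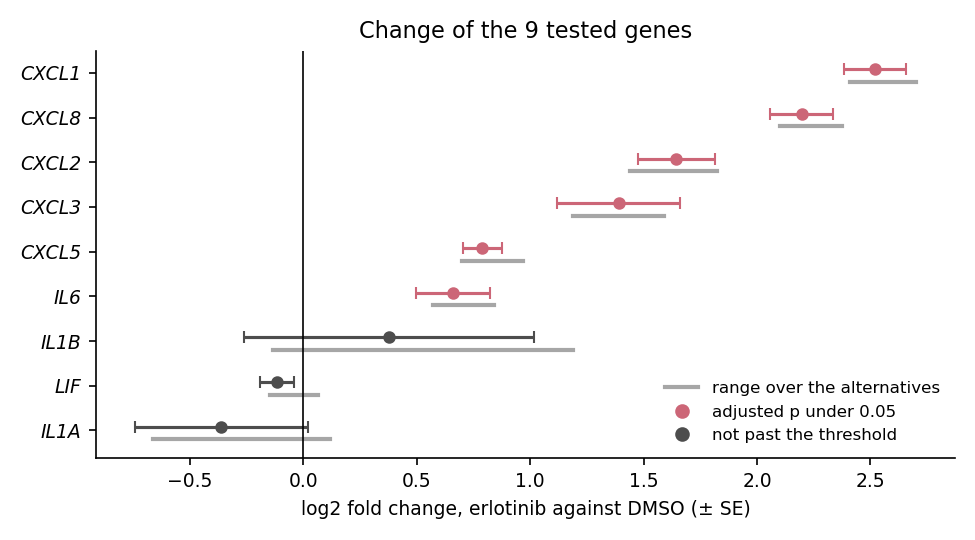
Log2 fold change of erlotinib against DMSO with its SE for the 9 tested genes, red where the adjusted p is under 0.05, with the range over the alternative analyses in grey. The grey ranges of CXCL1, CXCL8, CXCL2, CXCL3, CXCL5 and IL6 lie above 0, and those of IL1B, LIF and IL1A cross 0.

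Ranked by signal per kb of transcript, the levels in DMSO ran from CXCL5 (1202 ± 127, SD, n = 3) to LIF (573 ± 12.1), CXCL2 (114 ± 26.0), IL6 (114 ± 6.75), CXCL1 (97.3 ± 12.4), CXCL8 (75.9 ± 8.41), CXCL3 (31.4 ± 8.20), IL1A (22.5 ± 14.5), CCL20 (6.86 ± 4.66) and IL1B (6.02 ± 1.09). In this order the libraries of CXCL2 and IL6, of CXCL3 and IL1A, and of CCL20 and IL1B overlapped, and all other neighbours were separate. With erlotinib the order was CXCL5 (2078 ± 241), CXCL1 (561 ± 45.4), LIF (529 ± 35.1), CXCL2 (355 ± 43.97), CXCL8 (350.0 ± 40.6), IL6 (182 ± 23.3), CXCL3 (82.6 ± 11.3), IL1A (15.5 ± 2.2996), CCL20 (15.2 ± 3.89) and IL1B (9.94 ± 7.08). Here CXCL1 and LIF overlapped, as did CXCL2 and CXCL8, IL1A and CCL20, and CCL20 and IL1B. CXCL1 moved from rank 5 to rank 2, while CXCL5 stayed at rank 1 and IL1B at rank 10.

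Of 31 further chemokine genes, 16 were listed at 0 in every library, 8 had too few reads to be tested and 7 were tested, all of them higher with erlotinib. CXCL6, CXCL10, CXCL11 and XCL1 had DMSO means under 10 and passed the minimum only through the erlotinib libraries where they were high, so the count of 7 of 7 is not read against the 35.3% of all tested genes. CXCL11, an interferon-inducible attractant of T cells through CXCR3, had a signal of 0, 3.71 and 1.07 in DMSO and 82.1, 67.3 and 74.9 with erlotinib (log2 fold change 5.14 ± 0.60, SE). CXCL10, which acts on the same receptor, went from 0, 3.71 and 1.07 to 30.5, 67.3 and 48.7 (4.47 ± 0.67, SE). XCL1, known as a product of lymphocytes, went from 2.27, 13.9 and 6.42 to 37.8, 23.8 and 32.8 (2.16 ± 0.56, SE). The log2 fold changes of these 3 genes depend on the pseudocount. With pseudocounts of 10 and 0.1 they were 2.88 and 6.61 for CXCL11, 2.31 and 5.93 for CXCL10 and 1.28 and 2.37 for XCL1. CXCL16, a membrane-bound chemokine with the highest mean signal of these genes, had a signal of 2195, 1761 and 1969 in DMSO and 5227, 5210.2 and 5280.4 with erlotinib (1.41 ± 0.08, SE). In the fit with no filter, the adjusted p was 6.3e-07 for CXCL11, 7.4e-06 for CXCL10 and 0.0034 for XCL1, and for CXCL16 it was 9.2e-13 in the filtered fit (limma, n = 3 per group). With at least 10 reads required in every library, 3 of the 31 were tested and higher, since CXCL10, CXCL11, XCL1 and CXCL6 no longer passed the minimum.

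The receptor genes for these ligands had uneven signals in HCC827 cells. CXCR1 and CXCR2, the receptors of the CXC chemokines described here, and the decoy receptor ACKR1 were listed at 0 in every library, and CCR6 did not exceed 2.14. A gene listed at 0 here may still be expressed, as described for MIF below. Of the 6 tested receptor genes, 3 were higher (50%) and 1 was lower (16.7%), beside 35.3% and 35.4% of all tested genes. IL1R1, the signalling receptor of interleukin-1, rose from 498, 516 and 455 to 890, 911 and 910 (log2 fold change 0.88 ± 0.09, SE), and its partner IL1RAP fell from 575, 611 and 514 to 265, 360.3 and 303 (-0.88 ± 0.13, SE). The decoy receptor IL1R2 did not pass the test (-0.43 ± 0.44, SE). IL6R rose slightly (0.20 ± 0.07, SE), a call lost in 2 of 16 alternatives, and LIFR rose by 0.36 ± 0.14 (SE), a call lost in 9 of 16. IL6ST, with the highest mean signal of the receptor genes, had a mean of 8029 in DMSO and 8600.0 with erlotinib and did not pass the test (0.10 ± 0.07, SE), though it did in 2 of 16 alternatives.

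Of 20 genes of the interleukin-1 family and its signalling, 10 were tested, with 4 higher (40%) and 3 lower (30%), beside 35.3% and 35.4% of all tested genes. IL36RN, the receptor antagonist of the interleukin-36 ligands, rose from 19.3, 13.9 and 8.56 to 89.5, 86.1 and 80.5. SIGIRR, an inhibitory receptor (0.67 ± 0.15, SE), MYD88, the adaptor of the interleukin-1 receptors (0.59 ± 0.07, SE), and TOLLIP (0.19 ± 0.07, SE, lost in 7 of 16 alternatives) also rose. IRAK1, a kinase recruited by MYD88, with the highest mean signal of the list, fell from 32700.5, 24392 and 28482 to 13184, 13038 and 12531 (log2 fold change -1.13 ± 0.08, SE). Its relative IRAK2 fell by 0.67 on the log2 scale and the cytokine gene IL18 by 0.38, the latter a call lost in 1 of 16 alternatives. The receptor antagonist IL1RN (0.40 ± 0.43, SE), IL18BP (0.26 ± 0.15, SE) and IRAK4 (-0.14 ± 0.11, SE) did not pass the test. CASP1, which encodes the protease that matures interleukin-1β, was listed at 0 in the 3 DMSO libraries and had a signal of 13.8, 10.9 and 18.7 with erlotinib, under the minimum for a test. CASP1 was singled out after its values were seen.

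Among the other cytokines of the gp130 family, IL11 fell while IL6 rose. Its signal was 220.1, 235 and 258 in DMSO and 58.1, 49.5 and 61.8 with erlotinib, a log2 fold change of -2.06 ± 0.19 (SE). CLCF1, with the highest mean signal of the list, fell by 0.34 on the log2 scale, a call lost in 1 of 16 alternatives. EBI3, a subunit of interleukin-27 and interleukin-35, went from 2.27, 31.6 and 17.1 to 36.0, 34.6 and 30.9. The EBI3 groups overlapped, and its call (1.48 ± 0.60, SE) was lost in 8 of 15 alternatives, and it was 0.52 without DMSO library 1 and 2.18 without DMSO library 2. The other 5 of the 8 genes of this list were too low to be tested.

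Of 21 other inflammatory genes, mostly for secreted proteins, 15 were tested, with 9 higher (60%) and 2 lower (13.3%), beside 35.3% and 35.4% of all tested genes. The median of their log2 fold changes was 0.52. TNFSF10, which encodes the death ligand TRAIL, rose from 44.2, 64.1 and 46.0 to 805, 709 and 798 (3.90 ± 0.16, SE). The acute-phase gene SAA2 rose from 21.6, 48.3 and 39.6 to 399.6, 355 and 355 (3.38 ± 0.24, SE), IL32 from 22.7, 32.5 and 35.3 to 164, 168 and 197 (2.53 ± 0.24, SE), and LCN2, a siderophore-binding protein, from 1117, 928 and 926 to 3285, 3582 and 3161 (1.76 ± 0.08, SE). ICAM1, the adhesion molecule to which neutrophils bind, with the highest mean signal of the list, rose by 0.52 ± 0.07 (SE). CSF2, which encodes the growth factor GM-CSF, fell from 117, 152 and 124 to 76.6, 62.4 and 81.4 (-0.83 ± 0.21, SE), and TNFSF15 fell by 0.29 on the log2 scale, a call lost in 6 of 16 alternatives. CSF1 (0.14 ± 0.08, SE), IL12A (-0.16 ± 0.43, SE), IL15 (0.26 ± 0.20, SE) and TSLP (-0.0025 ± 0.41, SE) did not pass the test. MIF, a gene that most cells express and that was singled out after its values were seen, was listed at 0 in every library, so a gene listed at 0 here may still be expressed.

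All 26 genes of the NF-κB pathway were tested, and 13 were higher (50%) and 8 lower (30.8%), beside 35.3% and 35.4% of all tested genes. The median of their log2 fold changes was 0.21. The largest rise was that of NFKBIZ, a nuclear IκB protein with the highest mean signal of the list over the 6 libraries but not in DMSO, where TNIP1 led (3094), whose signal was 1535, 1900.1 and 1970.4 in DMSO and 7778, 7294 and 7526 with erlotinib (log2 fold change 2.07 ± 0.08, SE). BCL3, the gene of another nuclear IκB protein, rose from 657, 587 and 688 to 1627, 1614 and 1529.5 (1.31 ± 0.09, SE). The NF-κB subunit RELB (1.01 ± 0.13, SE) and the inhibitor NFKBIA (0.83 ± 0.07, SE) also rose. Other inhibitor genes went both ways. NFKBIB (-0.45 ± 0.08, SE), TNFAIP3 (-0.42 ± 0.08, SE) and TNIP2 (-0.20 ± 0.08, SE) fell, while CYLD (0.38 ± 0.08, SE) and TNIP1 (0.22 ± 0.07, SE) rose. These other inhibitor genes were singled out after their values were seen. CHUK, which encodes the kinase IKKα (-1.05 ± 0.12, SE), MAP3K14, which encodes the upstream kinase NIK (-0.97 ± 0.08, SE), the scaffold IKBKG (-0.60 ± 0.18, SE) and the subunit NFKB1 (-0.55 ± 0.08, SE) fell. NFKB2, NFKBID, NFKBIE, TNIP3 and BIRC2 did not pass the test, with log2 fold changes between -0.18 and 0.83.

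Of 13 genes that act on the stability of cytokine mRNAs, 5 were higher (38.5%), 5 lower (38.5%) and 3 neither, beside 35.3% and 35.4% of all tested genes. ZC3H12D, one of the 5 higher genes, was tested only through its erlotinib libraries. ZFP36, which encodes tristetraprolin, a protein that speeds the decay of such mRNAs, rose from 340.3, 413 and 357 to 1293, 1184 and 1361 (1.79 ± 0.10, SE). ZC3H12A, which encodes the RNase regnase-1, rose from 382, 345 and 389 to 757, 817 and 760.1 (1.06 ± 0.10, SE). ZFP36L1, with the highest mean signal of the list over the 6 libraries but not in DMSO, where KHSRP led (13182), rose by 0.56 ± 0.06 (SE), and ZC3H12D by 1.46 ± 0.59 (SE), a call lost in 9 of 15 alternatives. HNRNPD, which encodes the decay factor AUF1 (-0.96 ± 0.08, SE), ELAVL1, which encodes the stabilising protein HuR (-0.84 ± 0.06, SE), KHSRP (-0.65 ± 0.07, SE) and ZC3H12C (-0.61 ± 0.11, SE) fell. ZC3H12B (-0.49 ± 0.30, SE), RC3H1 (-0.15 ± 0.09, SE) and RC3H2 (0.10 ± 0.08, SE) did not pass the test.

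Of the 4 tested C/EBP factors, CEBPA rose from 38.6, 40.9 and 19.3 to 130.1, 139 and 132 (2.06 ± 0.28, SE) and CEBPD from 991, 814 and 950.4 to 3073, 3157 and 3190.1 (1.78 ± 0.08, SE). CEBPG fell by 0.68 on the log2 scale, and CEBPB did not pass the test (0.13 ± 0.08, SE). That is 2 of 4 higher (50%) and 1 lower (25%), beside the same 35.3% and 35.4%. Over these 8 lists together, 84 of 134 genes were tested, 44 were higher (52.4%) and 22 lower (26.2%), beside 35.3% and 35.4% of all tested genes, and the median of the log2 fold changes was 0.29. The lists were written with earlier results of these data known, and CXCL6, CXCL10, CXCL11, XCL1, TNIP3 and ZC3H12D were tested only through their erlotinib libraries, so these pooled counts only describe the genes in them.

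**Figure D5:**
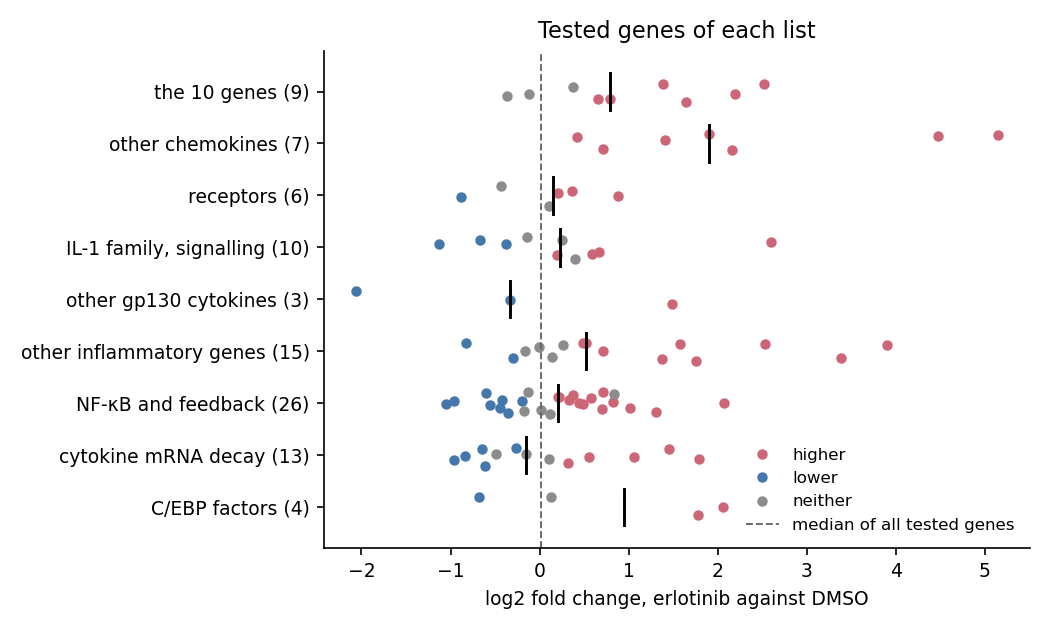
Log2 fold change of each tested gene, by list, with the number tested in brackets, red for higher, blue for lower and grey for neither at an adjusted p under 0.05. Black bars are the medians of the lists and the dashed line is the median of all tested genes, 0.02.

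The cells carried the epithelial markers of their label. All 8 epithelial markers were tested, with 2 higher (25%) and 4 lower (50%), beside 35.3% and 35.4% of all tested genes. Their highest mean signal was that of KRT7 (mean 123686 in DMSO and 79897 with erlotinib). EPCAM did not pass the test (9852 and 9485), and NKX2-1, the lung lineage factor, rose (3002 and 8644). Leukocytes are a main source of these cytokines in tissue. Of 12 leukocyte markers, MS4A1, FCGR3B, S100A12 and TYROBP were listed at 0 in every library, and the pan-leukocyte gene PTPRC was at 0, 0 and 5.35 in DMSO and 3.69, 4.95 and 5.62 with erlotinib. The summed signal of this list was 2920.0, 2919 and 3310.4 in DMSO and 3333, 3668 and 3573 with erlotinib, nearly all of it from CD68, a lysosomal gene that was higher with erlotinib (2898 and 3394). CSF1R did not pass the test (127 and 94.3), though its erlotinib libraries were lower with no overlap. ITGAM, under the minimum, was at 6.81, 5.57 and 2.14 in DMSO and 11.997, 17.8 and 9.36 with erlotinib, with no overlap. Of 7 fibroblast markers, COL1A1 alone was tested and rose (77.7 and 216), while LUM, under the minimum, was at 2.27, 3.71 and 6.42 in DMSO and 9.23, 9.90 and 18.7 with erlotinib, with no overlap. COL1A2, COL3A1, DCN, PDGFRA and PDGFRB did not exceed 5.35 in any library. The fibroblast list summed to 73.7, 75.2 and 109 in DMSO and 260.2, 223 and 217 with erlotinib. Of 5 endothelial markers, VWF rose from 3.40, 0.93 and 7.49 to 35.1, 25.7 and 21.5, having passed the minimum only through the erlotinib libraries, PECAM1 did not pass the test, and the list summed to 34.0, 15.8 and 24.6 in DMSO and 58.1, 46.5 and 48.7 with erlotinib. The part of these other markers in the changes of the cytokine genes was not tested.

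All 6 rises among the genes described kept their direction and their side of the threshold in all 16 alternatives. The total signal was lower with erlotinib, so scaling to the total count moved all genes up. The median log2 fold change over all tested genes became 0.19, and 60.9% of the genes past the threshold were higher, in place of 49.9%. Under that scaling CXCL1 had a log2 fold change of 2.70 and IL6 one of 0.84, the largest of any alternative.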

How the data were processed

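RNA-seq of 6 HCC827 libraries, 3 with DMSO and 3 with 1 μM erlotinib for 24 h, was used. For alignment of the read pairs to GRCh38 the authors chose Bowtie2 2.3.4, which does not split reads across introns, and gene counts came from featureCounts 1.6.3, restricted to reads with a unique position. Each deposited signal value is a whole multiple of a step that is fixed within a library (100% of values, within 0.01 reads), which fits reads scaled by 1 size factor per library. The read totals are the signal over this step.

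Signal was tested with limma 3.58.1 (trended variance) on log2(signal + 1), two-sided, over genes with a mean of at least 10, with Benjamini-Hochberg adjustment over 14215 genes and a threshold of 0.05. Replicates differed by more than sampling noise (the chi-square over its degrees of freedom was 4.05 to 22.9). Alternatives were pseudocounts of 0.1 and 10, at least 10 reads in every library or no filter, TMM and total count scaling, a threshold of 0.01 and each library left out in turn. DESeq2 1.42.0, edgeR 4.0.16 and limma-voom were run on the recovered reads of 5 libraries, without erlotinib library 5. Its step, 0.99, was refused by the check on recovered reads, which treats a step this close to 1 as rounding. It was therefore kept out of these 3 tests, although 100% of its values were whole multiples of that step. This was decided after seeing the data.

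The genes, the other lists and the motifs were chosen with earlier results of these data known. From each other list, up to 4 genes with the largest rise and up to 4 with the largest fall past the threshold, the tested genes past no threshold where there were at most 5, and the most abundant gene were named, as were the genes within and beside the chromosomal clusters. Promoters and positions came from RefSeq (GRCh38.p14, matched by Entrez identifier), and transcript lengths from GENCODE release 44 (MANE Select). Identical stretches were searched for in the genome with exact matches of 31 bases. Software also included R 4.3.3, Python 3.11.15 and matplotlib 3.10.9.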

Additional observations from a re-analysis of the deposited data

How the results depend on the processing

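The counts of genes higher and lower, among the 10 genes described, the other listed genes and all tested genes, stayed within 1.5 times their values in all 16 alternatives. Of the 9 tested genes described, 6 kept their direction and call throughout, as did 39 of the 63 other named genes. Scaling to the total count turned the log2 fold change of LIF to 0.063, IRAK4 to 0.043, IL12A to 0.012, TSLP to 0.17, NFKBIE to 0.047 and RC3H1 to 0.029. TSLP was also 0.27 by DESeq2, 0.28 by edgeR, 0.19 by limma-voom, 0.011 after TMM scaling and 0.011 with a pseudocount of 10. NFKB2 was -0.0196 by DESeq2, -0.0127 by edgeR and -0.0099 by limma-voom. None of these genes passed the main test. With 1 library left out, the log2 fold change ranged from -0.66 to 0.12 for IL1A, from -0.13 to 1.07 for IL1B, from -0.23 to 0.74 for IL1RN, from -0.36 to 0.15 for IL12A, from -0.35 to 0.19 for TSLP, from -0.037 to 0.089 for NFKB2, from -0.41 to 0.041 for NFKBID and from -0.26 to 0.027 for NFKBIE. Some genes passed only in an alternative. These were IL6ST, IL18BP, BIRC2, CSF1, RC3H2 and CEBPB after total count scaling (log2 fold changes 0.28, 0.44, 0.29, 0.32, 0.28 and 0.31), IL6ST and BIRC2 without DMSO library 2, IL18BP without DMSO library 3 and ZC3H12B without DMSO library 1. The causes were not tested.

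Counts of short lists moved more. Of the other chemokines, 3 in place of 7 were higher with at least 10 reads in every library. Of the receptors, 1 in place of 3 was higher at a threshold of 0.01 or without erlotinib library 4. Of the interleukin-1 family, 7 in place of 4 were higher with no filter. Of the other gp130 cytokines, 0 in place of 1 was higher by DESeq2 or edgeR, at a threshold of 0.01, with no filter, with at least 10 reads in every library, and without DMSO library 1 or any 1 erlotinib library, and 1 in place of 2 was lower after total count scaling. Of the other inflammatory genes, 1 in place of 2 was lower by DESeq2, edgeR or limma-voom, at a threshold of 0.01, after total count scaling and without erlotinib library 6. No paired analysis was possible because the erlotinib columns are numbered 4 to 6 and carry none of the numbers of the labels. At this depth CCL20 had between 2 and 9 reads per DMSO library and IL1B between 8 and 10.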
